A study of Saccharomyces cerevisiae with 4 samples.

Results

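Chromatin pulled down from a yeast strain whose Lsm1 protein carried a TAP tag was compared with chromatin taken through the same pull-down from a strain without any tag. The comparison uses 2 of the 4 libraries of the study, picked by their labelled genotypes, LSM1-TAP and no TAP tag, with 1 library for each strain. The other libraries, from the XRN1-TAP and DCP2-TAP strains, appear only where they show how Lsm1-TAP differs from its neighbours. All strains of Saccharomyces cerevisiae had the background yMC458 and were grown in YPD, a rich glucose medium. Cells were fixed with 1% formaldehyde, the sheared chromatin was bound to rabbit IgG sepharose beads, which hold the protein A part of the TAP tag, and the DNA on the beads was trimmed with lambda exonuclease and RecJf. In this assay, ChIP-exo, the exonuclease stops where a protein is crosslinked, and tag ends therefore lie at the edges of the protein. The design text speaks of 2 replicates, but 1 file per strain was analysed, so every interval below is an exact 95% interval for counting error alone and no difference between the strains has a replicate check.

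Lsm1 is the subunit that sets the cytoplasmic Lsm ring apart from its nuclear relative, in which Lsm8 takes its place. With its partner Pat1 the ring binds the 3′ ends of mRNAs whose poly(A) tail has been shortened, protects those ends from trimming and promotes removal of the 5′ cap, after which the exonuclease Xrn1 degrades the message. The series title describes gene expression as circular, and the pull-down asks where on chromosomes such a decay factor is recovered.

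The Lsm1-TAP library held 211236 tags and the No-TAP library 33412. Counting each base and strand once, Lsm1-TAP had 25342 distinct positions and No-TAP 4743, a ratio of 5.34 (interval 5.18 to 5.51). If Lsm1-TAP were thinned to the No-TAP tag total, the ratio would be 3.07. Among positions with at least 2 tags it was 5.68. How much of the ratio went with depth was not tested. Each position carried 8.34 tags on average in Lsm1-TAP and 7.04 in No-TAP. A single tag was held by 25.5% and 29.9% of positions, so many tags are repeat reads of the same end. Distinct positions are therefore the main unit here, scaled to the library's total, and tags are given beside them. On 15 of the 16 nuclear chromosomes, start codons lined up with the files' indices within 30 bp, while chromosome XI needed a shift of -370 bp and is left out of everything that uses genes.

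A pair of sequence families has to be described before any placing, because their positions were divided among copies. The first is the ribosomal DNA (rDNA), a long tandem array on chromosome 12 of which the gene table holds 2 copies. Of 1082 Lsm1-TAP positions in the first copy, 964 (89.1%) had a counterpart on the same base and strand of the second copy, against a mean of 79.3 at other offsets, and 7491 tags of these pairs lay in the first copy and 7521 in the second. No-TAP behaved alike, with 136 of 170 positions (80.0%). Tags from the array were thus spread over both annotated copies, and the copies were folded onto a single unit before counting. The second family is a set of 139 coding genes that share positions with another coding gene at the same offset. These repeated genes and their flanks made up 3.33% of the genome but held 16% of the Lsm1-TAP positions outside the rDNA and 14.6% of the No-TAP positions, while they held only 3.81% and 3.77% of the tags. Their positions carried 1.99 tags each in Lsm1-TAP, against 9.56 outside them. Values without the repeated genes are therefore given beside the main values. Outside both families the ratio of Lsm1-TAP to No-TAP positions was 5.18 (5.0 to 5.37).

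Upstream regions held a smaller part of the Lsm1-TAP library than of the untagged library, and coding regions a larger part. The 300 bp upstream of start codons took 22.8% of Lsm1-TAP positions (5320) and 26.0% of No-TAP positions (1147). The ratio of these shares was 0.876 (0.821 to 0.934). Coding regions took 51.6% of Lsm1-TAP positions and 47.9% of No-TAP positions, a ratio of 1.08 (1.03 to 1.13). The 300 bp past stop codons stood at 0.921 (0.857 to 0.991). By tags the upstream share was 22.9% in Lsm1-TAP and 26.8% in No-TAP. The difference was not carried by a single chromosome, since the upstream share was lower in Lsm1-TAP on 12 of 15 chromosomes and the ratio stayed between 0.865 and 0.892 when each chromosome was left out in turn. Without the repeated genes the ratios were 0.887 (0.830 to 0.948) upstream and 1.09 (1.03 to 1.15) in coding regions.

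Apart from the small RNA and repeated genes, both libraries nevertheless had the same order of classes when each was set against an even spread of its own positions. Upstream regions were 1.80-fold above an even spread in Lsm1-TAP and 2.04-fold in No-TAP. Regions past stop codons stood at 1.55-fold and 1.67-fold. Coding regions lay below an even spread in both, at 0.750-fold and 0.692-fold. Gaps between divergent genes, which hold a promoter for each neighbour, stood at 1.72-fold in Lsm1-TAP, gaps between tandem genes at 1.67-fold and gaps between convergent genes, which hold no promoter of these neighbours, at 1.52-fold. Against No-TAP, the share of divergent gaps was 0.902 (0.831 to 0.981), of tandem gaps 0.901 (0.843 to 0.963) and of convergent gaps 0.968 (0.850 to 1.10), so only the interval of the convergent gaps held 1. The outer 20 kb of chromosome ends stood at 0.903 (0.803 to 1.02) and the repeated genes at 1.09 (0.996 to 1.19). With Lsm1-TAP thinned to the No-TAP tag total these stood at 0.615 and 0.483.

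**Figure D1:**
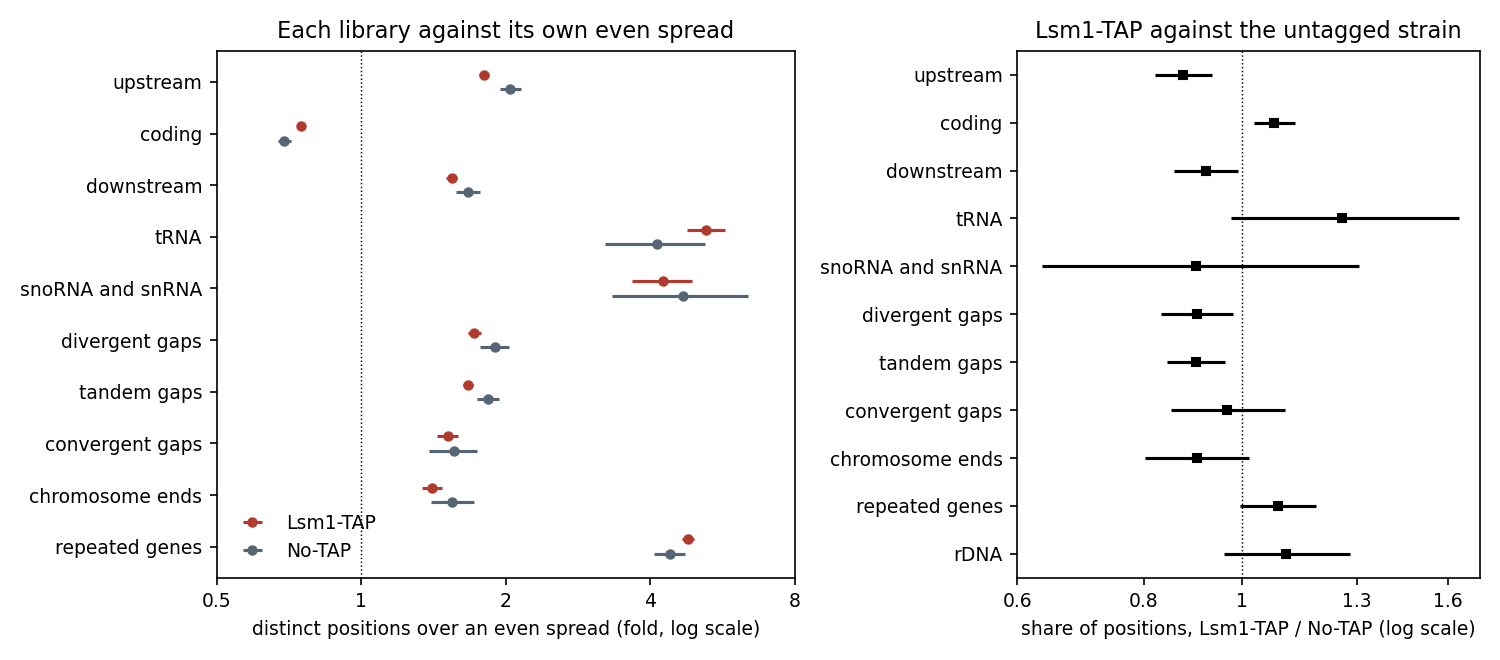
Left, distinct positions per class over an even spread of the same library, as fold on a log axis, for Lsm1-TAP (red) and No-TAP (grey), with exact 95% Clopper-Pearson intervals. Right, the share of positions in Lsm1-TAP over that in No-TAP on a log axis, with exact 95% intervals for counting error. Upstream regions lie at 0.876 and coding regions at 1.08, while the intervals of tRNA, snoRNA, convergent gaps, chromosome ends, repeated genes and rDNA hold 1.

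Lsm1-TAP also differed in this from the other tagged libraries. Upstream regions took 25% of Xrn1-TAP positions and 26.6% of Dcp2-TAP positions. The Lsm1-TAP share was 0.912 of that in Xrn1-TAP (0.876 to 0.95) and 0.857 of that in Dcp2-TAP (0.829 to 0.885). In coding regions the corresponding ratios were 1.06 (1.03 to 1.09) and 1.09 (1.07 to 1.12). Among the 4 libraries Lsm1-TAP had the lowest upstream share and the highest coding share, by positions, without an estimate of how much replicate libraries would vary.

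Around start codons, positions of both strains were densest just upstream and sparse within the gene. Without repeated genes, the fullest 20 bp bin of Lsm1-TAP began 100 bp upstream of the start codon and held 462 positions, 2.50 times an even spread. The same bin was the fullest in No-TAP, with 108 positions and 3.03 times an even spread. The level 140 to 41 bp upstream, set over the level within coding regions beyond their first 100 bp, gives a promoter fold for each library. It was 2.69 in Lsm1-TAP (2.57 to 2.82) and 3.44 in No-TAP (3.11 to 3.8), over 5551 genes. The Lsm1-TAP fold was thus 0.783 of the No-TAP fold (0.702 to 0.874). It was 0.807 of the Xrn1-TAP fold of 3.34 and 0.691 of the Dcp2-TAP fold of 3.90. Without repeated genes the folds were 3.55 and 4.57, with a ratio of 0.777 (0.691 to 0.875). A second, broader maximum followed stop codons. Between 100 and 300 bp past the stop codon Lsm1-TAP averaged 1.75 times an even spread and No-TAP 1.93 times, against 1.03 and 1.09 times in the last 200 bp of coding regions.

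**Figure D2:**
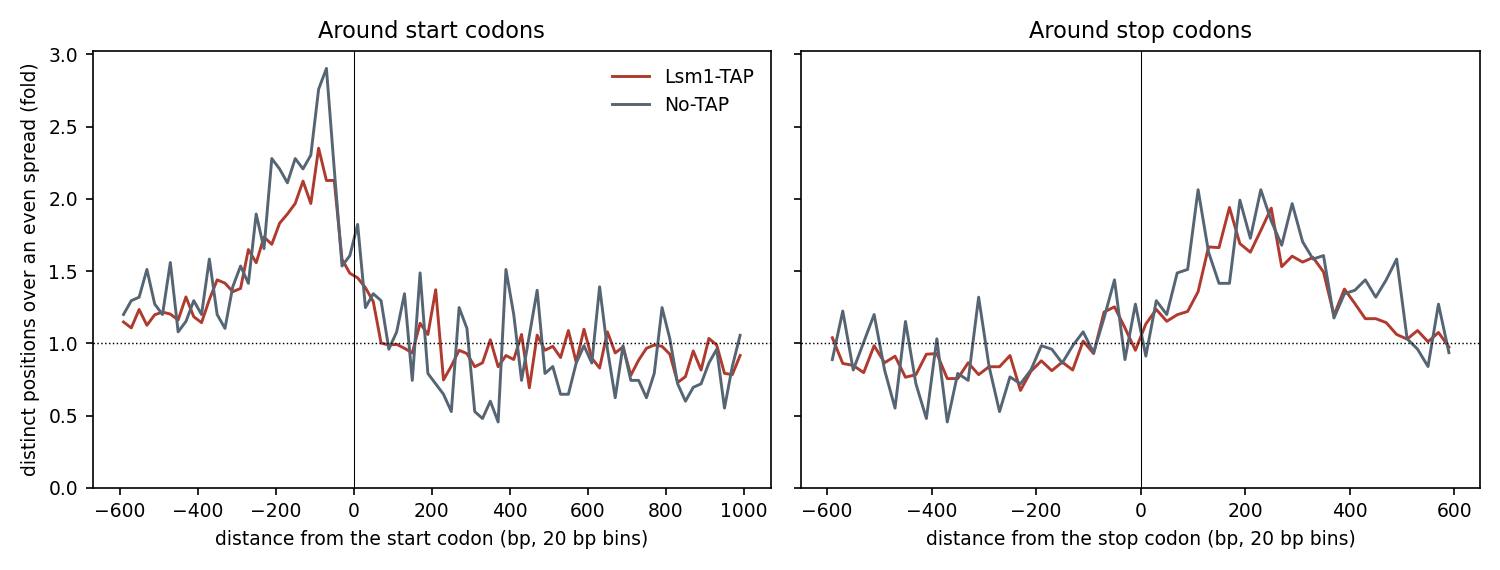
Distinct positions over an even spread of the same library (fold) in 20 bp bins, around start codons (left) and stop codons (right) of coding genes, for Lsm1-TAP (red) and No-TAP (grey), repeated genes included. The curves share their maxima upstream of start codons and past stop codons, and Lsm1-TAP lies below No-TAP at the upstream maximum.

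Within coding regions the middle took a larger share of Lsm1-TAP than of No-TAP. Over all genes outside repeats, the middle 6 of 10 equal bins of the coding region stood at 0.592 of an even spread in Lsm1-TAP and 0.497 in No-TAP, a ratio of 1.19 (1.11 to 1.29). The first 2 bins gave a ratio of 1.00 (0.899 to 1.12) and the last 2 bins 1.01 (0.913 to 1.13). Genes of at least 2 kb, of which 1188 lay outside repeats, had 1861 Lsm1-TAP and 292 No-TAP positions in their middle 6 bins, a ratio of 1.23 (1.09 to 1.4). Their first 2 bins gave 1.18 (0.972 to 1.44) and their last 2 bins 1.13 (0.951 to 1.35), and the middle was not tested against the ends. In the 2071 genes of 1 to 2 kb the middle gave 1.19 (1.04 to 1.35), and in the 2247 shorter genes 1.15 (0.991 to 1.34). With repeated genes included the ratio for the middle of all genes was 1.14 (1.07 to 1.22). The interior of long genes was the emptiest stretch in both libraries, at 0.510 of an even spread in Lsm1-TAP and 0.414 in No-TAP.

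**Figure D3:**
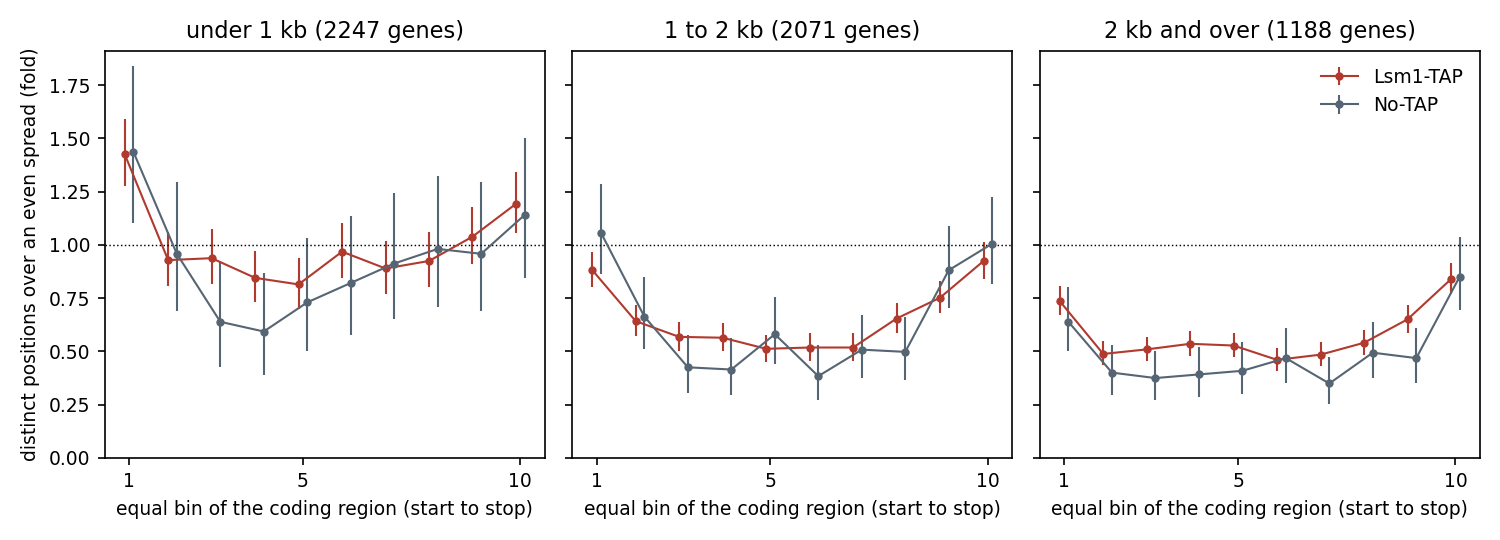
Distinct positions over an even spread of the same library (fold) in 10 equal bins of the coding region, from start to stop, for genes outside repeats in 3 length classes, with exact 95% Poisson intervals. Both libraries dip in the middle, and in genes of 2 kb and over Lsm1-TAP averages 0.510 in the middle 6 bins and No-TAP 0.414.

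An exonuclease border on the forward strand followed by a border on the reverse strand a short way downstream is the pattern a crosslinked protein leaves in this assay. In Lsm1-TAP there were 2220 pairs in which the reverse position lay 10 to 49 bp downstream of the forward one and 1515 in which it lay as far upstream, a ratio of 1.47 (1.37 to 1.57). No-TAP had 111 and 62 such pairs, a ratio of 1.79 (1.3 to 2.48). In upstream regions the ratios were 1.56 (1.37 to 1.77) and 2.22 (1.33 to 3.8), and in coding regions 1.37 (1.25 to 1.52) and 1.08 (0.609 to 1.91). The No-TAP interval for coding regions holds 1, so no such pairing was shown there, and the difference between the strains was not tested. Few single bases were shared: 30 positions outside the rDNA coincided, which is 0.136% of the Lsm1-TAP positions and 0.718% of the No-TAP positions, against a mean of 18.7 and a range of 8 to 35 when the libraries were offset by 20 to 60 bp, so 30 lies within that range.

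The upstream regions of 342 of 5684 coding genes (6.02%) held more Lsm1-TAP positions than an even spread of that library, by a 1-sided Poisson test with Benjamini-Hochberg adjusted p of at most 0.05. The same test called 44 genes (0.774%) in No-TAP, where fewer positions leave less power. Of the genes called in No-TAP, 27 (61.4%) were also called in Lsm1-TAP, where they made up 7.89% of the calls. No-TAP had no position upstream of 170 of the 342 genes (49.7%), a smaller share than among all genes, of which 81.8% had none. Repeats touched 67 of the 342 called genes but only 176 of all 5684 genes, so the calls were rich in such windows. Outside repeats and rDNA, 273 of 5506 genes were called. A tRNA, snoRNA or snRNA gene lay in the upstream window of 5.56% of the called genes and of 1.62% of all genes.

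Gene by gene, the positions separated few upstream regions from the untagged strain. Scaled to the library totals, 0 genes (0.00%) lay above No-TAP and 33 (0.581%) below it, counting a gene when the interval of its ratio excluded 1. A gene with no No-TAP position would need 22 positions in Lsm1-TAP to lie above it, and only 2 genes had that many, so genes above the control could hardly be seen at this depth. Median ratio scaling of positions gave 6 genes above and 1 below. That median, 0.374, was taken only over the 710 genes with tags in both libraries. Leaving out genes at 0 in No-TAP itself lowers the median and raises every rescaled ratio, so these 6 genes show no excess. By tags, which count repeat reads as separate and so give intervals that are too narrow, 422 genes (7.42%) lay above No-TAP and 593 (10.4%) below. Bins of 20 kb held a median of 32 Lsm1-TAP and 6 No-TAP positions. Of 562 bins, 6 (1.07%) lay above No-TAP and 11 (1.96%) below.

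The fullest upstream region outside the rDNA neighbourhood was that of ITR1 (YDR497C, minus strand of chromosome 4), the major inositol transporter. It held 19 Lsm1-TAP positions with 313 tags and 6 No-TAP positions with 67 tags, which is 1482 and 2005 CPM when tags are scaled to the library total. Scaled tags were lower in Lsm1-TAP, at 0.739 of No-TAP (0.566 to 0.977), and 11 positions in Xrn1-TAP and 9 in Dcp2-TAP lay in the same window. The gene therefore stood high in the untagged strain as well. Its Lsm1-TAP positions ran from 31 to 297 bp upstream, with 8 of the 19 on the gene's own strand. Only a part of them, listed here, lay in groups by strand. In Lsm1-TAP the strand opposite to the gene held 19, 45 and 28 tags at 179, 188 and 198 bp upstream of the start codon, and the gene's own strand held 17, 13, 21 and 32 tags at 205, 207, 211 and 224 bp. In No-TAP the opposite strand held 17, 22 and 17 tags at 188, 193 and 196 bp, while 4 tags at 185 bp were the only ones on the gene's strand within 20 bp of these. The base 188 bp upstream was thus marked in both libraries.

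The genes that followed were CPT1, CDS1, CCW12 and PDC1. CPT1, the cholinephosphotransferase of phosphatidylcholine synthesis, had 16 Lsm1-TAP positions with 156 tags and 3 No-TAP positions with 62 tags. CDS1, the CDP-diacylglycerol synthase, had 15 positions with 206 tags and 4 with 32 tags. CCW12, a cell wall mannoprotein whose window is shared with YLR111W, had 14 positions with 146 tags and 5 with 92 tags. All of these were also called in No-TAP, and scaled tags of CPT1 and CCW12 were 0.398 (0.295 to 0.543) and 0.251 (0.192 to 0.329) of No-TAP. PDC1, the main pyruvate decarboxylase of fermentation, had 14 positions with 89 tags against 2 with 8 tags and was not called in No-TAP. RRT15 and YLR162W had more positions, 26 and 22, but lie next to further 5S gene copies on chromosome 12, so their counts are uncertain.

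FAS2, a fatty acid synthase subunit, held the tallest single position of the named genes, with 130 of its 254 Lsm1-TAP tags on a single base. It had 12 Lsm1-TAP and 6 No-TAP positions, and scaled tags stood at 1.43 of No-TAP (0.969 to 2.20). EKI1, ethanolamine kinase, had 11 positions with 174 tags in Lsm1-TAP against 1 position with 2 tags in No-TAP. Its scaled tags were 13.8 times those of No-TAP (3.75 to 115). By positions the EKI1 ratio was 2.06 (0.299 to 88.6), so by positions no excess was shown. YEL008W, a gene without a name in the table, had 12 positions with 80 tags against 1 with 2 tags. SSN8, the cyclin of the Mediator kinase module, was the reverse, with 2 positions and 8 tags in Lsm1-TAP but 6 positions and 27 tags in No-TAP, a ratio of 0.0469 by tags (0.0184 to 0.106). TDH3, glyceraldehyde-3-phosphate dehydrogenase, had 10 and 6 positions, and its scaled tags were 0.233 of No-TAP (0.152 to 0.362).

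Among genes with no tag at all in No-TAP, HHT1, which encodes histone H3, had 9 Lsm1-TAP positions with 79 tags. Set against a floor of 3 No-TAP tags, the scaled tags were 4.17-fold higher, a value that depends on the floor. The exact interval of the ratio starts lower, at 3.31 by tags and at 0.369 by positions, so by positions no excess was shown. YPL257W-A, YPL257W-B, YMR050C and YMR051C had 10 to 12 positions, but these are repeated genes and the positions held only 12 or 13 tags in all. The 5 coding regions of at least 1 kb with most Lsm1-TAP positions per kb were also repeated genes. They ran from 34.0 per kb in YAR010C to 39.3 per kb in YJR028W, with 7.56 and 6.05 per kb in No-TAP. HHT1 itself had no position in its coding region in either library.

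Genes of inositol and phospholipid synthesis supplied the 3 fullest upstream regions away from the rDNA. In yeast many of these genes are controlled together by Ino2 and Ino4, activators held back by Opi1 when inositol is present. Of 26 genes measured, 12 were called in Lsm1-TAP (46.2%, against 6.02% of all genes). In No-TAP 3 of the 26 were called, where only 0.774% of all genes were. The list held 128 positions in Lsm1-TAP, 4.64 times the mean gene (3.87 to 5.52), and 22 in No-TAP, 3.73 times the mean gene (2.34 to 5.65). The median member had 2.50 positions in Lsm1-TAP and 0 in No-TAP, against 1 and 0 over all genes. The share of this list in Lsm1-TAP was 1.09 of that in No-TAP (0.689 to 1.80), so the untagged strain showed it to a degree that could not be told apart. The list stood lower in the other tagged libraries, at 3.05 times the mean gene in Xrn1-TAP and 2.55 times in Dcp2-TAP, and the Lsm1-TAP share was 1.37 (1.02 to 1.87) and 1.53 (1.2 to 1.96) of theirs.

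Within that list the positions were unequally divided. After ITR1, CPT1, CDS1 and EKI1 came INO1, inositol-3-phosphate synthase, with 10 Lsm1-TAP positions and 228 tags against 2 positions and 22 tags. The scaled ratio of INO1 was 1.64 by tags (1.06 to 2.67) but 0.936 by positions (0.199 to 8.78), so by positions no excess was shown. Its tallest Lsm1-TAP positions held 46, 40 and 34 tags at 219, 286 and 117 bp upstream. PSD1, phosphatidylserine decarboxylase, had 9 and 2 positions. CHO1, phosphatidylserine synthase, had 8 and 0 positions, and CHO2, a phosphatidylethanolamine methyltransferase, 6 and 0. The regulators INO2 and OPI1 had 4 positions each, with 76 and 50 tags, and were called, whereas INO4 had 1 position with 1 tag. ITR2, the minor inositol transporter, had 1 position against the 19 of ITR1. PGS1 and DGK1 had none in Lsm1-TAP.

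The 8 core histone genes were 5.06 times the mean gene in Lsm1-TAP (3.67 to 6.82) and 2.76 times in No-TAP (0.895 to 6.43). In Lsm1-TAP 6 of the 8 were called (75.0%, against 6.02% of all genes), in No-TAP none, where only 0.774% of all genes were called. HHT1 and HHT2, both for histone H3, had 9 positions each, and HTA1 and HTB2, for H2A and H2B, 6 each, while No-TAP had 0 or 1 at every histone gene. The share of the list was 1.61 of that in No-TAP (0.639 to 5.21), an interval that holds 1. By tags it was 1.56 (1.11 to 2.27). Histone genes were also high in the other tagged libraries, at 4.37 times the mean gene in Xrn1-TAP and 5.21 times in Dcp2-TAP. The Lsm1-TAP share was 1.05 (0.641 to 1.73) and 0.820 (0.558 to 1.19) of theirs, so both intervals held 1.

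Several, but not all, lists of abundantly expressed genes stood above the mean gene in both strains but took a smaller share of Lsm1-TAP than of No-TAP. Glycolysis and fermentation genes were 3.72 times the mean gene in Lsm1-TAP and 5.8 times in No-TAP, and their share was 0.561 of that in No-TAP (0.353 to 0.922). Hsp70 and Hsp90 chaperones stood at 0.456 (0.249 to 0.874), cell wall genes at 0.433 (0.235 to 0.833), a call lost with 500 bp windows at 0.617 (0.353 to 1.13), and proteins of the large ribosomal subunit at 0.665 (0.503 to 0.890). These 4 lists were the ones whose interval lay below 1, of 17 lists, and no list lay above 1. Proteins of the small ribosomal subunit, at 0.788 (0.536 to 1.19), and translation elongation factors, at 1.09 (0.454 to 3.18), had intervals that held 1. Relative to upstream windows alone, where the ratio over all windows was 0.876, the intervals of 2 lists excluded 1, those of the chaperones, 0.521 (0.284 to 0.998), and of the cell wall genes, 0.494 (0.268 to 0.951). Of the 79 genes of the large ribosomal subunit, 25 were called in Lsm1-TAP (31.6%, against 6.02% of all genes), led by RPL7B with 11 positions and RPL9B with 9. PGK1, phosphoglycerate kinase, had 11 positions against 1 in No-TAP, and SSA2, a cytosolic Hsp70, 11 against 3. Translation elongation factors had 35 and 6 positions, with 5 of 10 genes called (50.0%, against the same 6.02%). Among them YEF3, elongation factor 3, had 8 positions with 63 tags against no tag in No-TAP, 3.32-fold higher when set against the floor of 3 tags. The exact interval for YEF3 starts at 2.62 by tags and at 0.319 by positions, so by positions no excess was shown.

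**Figure D4:**
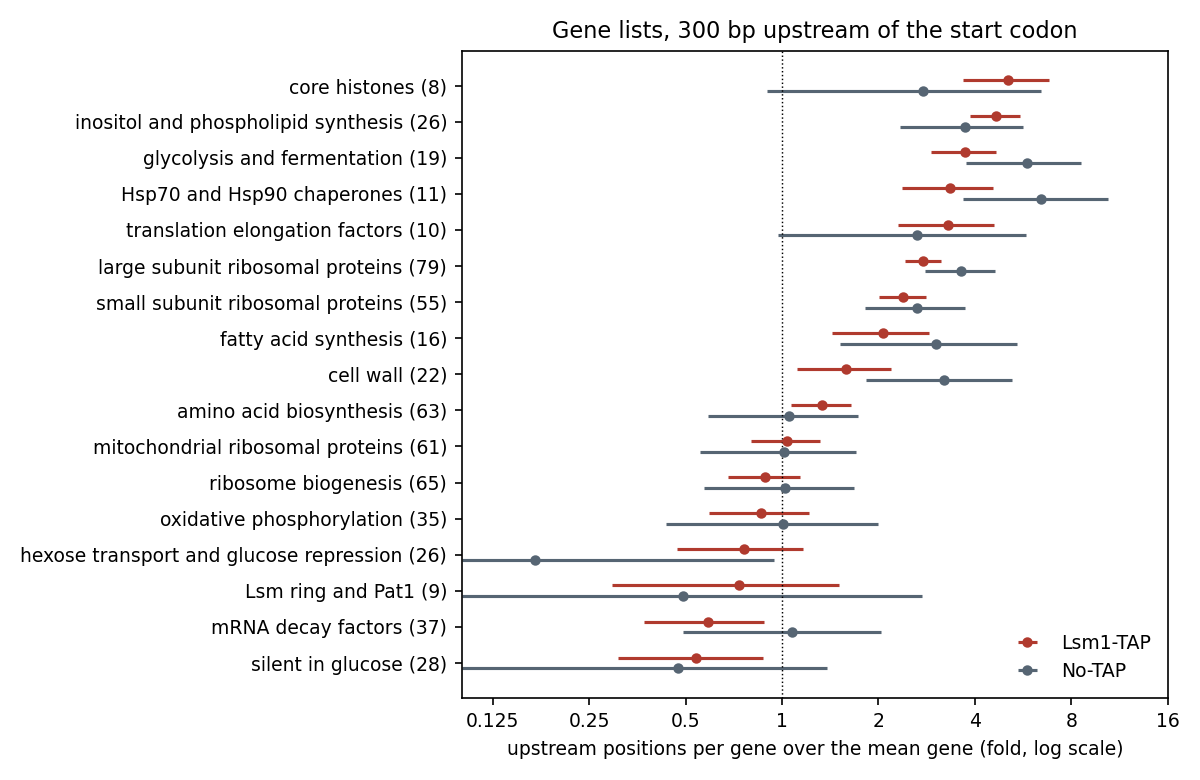
Distinct positions per gene in its upstream 300 bp, over the mean coding gene of the same library (fold, log axis), for 17 gene lists with the number of genes in brackets, with exact 95% Poisson intervals; bounds under 0.1 are drawn at the edge. Histone and phospholipid genes lead in Lsm1-TAP at 5.06 and 4.64, chaperone and glycolysis genes in No-TAP at 6.42 and 5.8.

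Other lists were close to the mean gene or below it. Mitochondrial ribosomal proteins stood at 1.03 times the mean gene in Lsm1-TAP, ribosome biogenesis at 0.884 and oxidative phosphorylation at 0.862. Genes silent in glucose, such as those of galactose use and meiosis, stood at 0.538 (0.308 to 0.874) in Lsm1-TAP and 0.473 in No-TAP. The genes of mRNA decay factors, among them XRN1, DCP2 and those of the Lsm ring, stood at 0.586 (0.371 to 0.879) in Lsm1-TAP. They stood at 1.07 (0.491 to 2.04) in No-TAP, 0.694 in Xrn1-TAP and 0.678 in Dcp2-TAP. Their share in Lsm1-TAP was 0.478 of that in No-TAP (0.213 to 1.17), an interval that holds 1. In Lsm1-TAP 0 of 37 were called, against 6.02% of all genes. LSM1 had 2 positions with 20 tags in Lsm1-TAP and none in No-TAP. LSM8 had 2, PAT1, LSM4 and LSM6 1 each, and LSM2, LSM3, LSM5 and LSM7 none. Hexose transport and glucose repression genes had 21 positions in Lsm1-TAP and 1 in No-TAP. The ratio was 3.93 with an interval of 0.632 to 163, so the difference between the strains was not resolved. These genes stood at 0.761 times the mean gene in Lsm1-TAP (0.471 to 1.16) and 0.170 times in No-TAP (0.0043 to 0.945). MIG2, a glucose repressor, led them with 6 positions and 95 tags against 1 position and 3 tags.

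Small RNA genes were among the densest classes in both strains. The 259 tRNA genes with 50 bp on each side stood at 5.35 times an even spread in Lsm1-TAP (4.88 to 5.85) and 4.10 times in No-TAP (3.19 to 5.18), a ratio of 1.3 (1.01 to 1.70). Near-identical tRNA copies can divide tags as the repeated genes did, and positions inside tRNA genes carried 3.55 tags against 6.81 in their flanks. In the flanks alone there were 201 Lsm1-TAP and 25 No-TAP positions, a ratio of 1.53 (1.00 to 2.42). When overlapping windows were counted once, the tRNA class gave 1.26 (0.976 to 1.64), so the interval includes 1 by that count. That ratio was 1.07 by tags (0.96 to 1.21) and turned to 0.943 when Lsm1-TAP was thinned to the No-TAP tag total. The fullest tRNA gene was YNCE0010W, with 8 positions and 3 in No-TAP, and YNCD0021C followed with 7 positions and 84 tags against 2 positions and 14 tags. YNCI0008C, YNCJ0013C and YNCJ0014C had 7 each with none in No-TAP.

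The 70 snoRNA genes stood at 4.30 times an even spread in Lsm1-TAP and 5.08 in No-TAP, a ratio of 0.847 (0.590 to 1.24). SNR30, an essential snoRNA of 18S processing, had 14 positions with 139 tags in Lsm1-TAP, of which 10 lay inside the gene, and 2 in No-TAP, both upstream. SNR17A, which encodes U3 snoRNA, had 11 positions against 3. LSR1, the U2 snRNA gene, had 9 and 1, and SNR45 had 9 with 62 tags against none.

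In the folded rDNA unit of 9137 bp, Lsm1-TAP had 1337 positions and No-TAP 228. This was 5.73% of Lsm1-TAP positions (5.43 to 6.03) and 5.17% of No-TAP positions (4.54 to 5.87), a ratio of 1.11 (0.961 to 1.28). With the copies counted apart the ratio was 1.18 (1.06 to 1.32), by tags 1.15 (1.10 to 1.2), and with positions closer than 5 bp merged 0.808 (0.692 to 0.947). Merging was the only one of these counts with a ratio below 1, and thinning to the No-TAP tag total gave a ratio above 1. The direction against the untagged strain thus depends on whether close positions are merged. Lsm1-TAP positions filled 7.32% of the unit's bases, counting each strand apart, and No-TAP positions 1.25%. Merging can therefore join more positions in Lsm1-TAP, and its part in the ratio was not tested. Against the other tagged strains the folded share was higher in Lsm1-TAP, 1.15 times that of Xrn1-TAP (1.05 to 1.25) and 1.28 times that of Dcp2-TAP (1.19 to 1.37). After folding, which adds the tags of both copies, a position carried 12.8 tags in Lsm1-TAP and 10.3 in No-TAP.

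Positions were close to evenly spread along most of the unit. The 35S transcribed unit, which yields the 18S, 5.8S and 25S rRNAs, makes up 75.1% of the unit and held 74.8% of Lsm1-TAP and 73.7% of No-TAP positions. The 18S gene was slightly below an even spread in Lsm1-TAP, at 0.839 (0.740 to 0.946), and the 5′ external spacer above it, at 1.24 (1.04 to 1.46). In No-TAP these parts stood at 0.980 and 1.37, with intervals that hold 1. For all 10 parts the interval of the ratio between the strains held 1. The 5S gene had 26 Lsm1-TAP and 9 No-TAP positions, a ratio of 0.493 (0.224 to 1.19). It stood at 1.47 times an even spread in Lsm1-TAP (0.962 to 2.14) and 2.98 times in No-TAP (1.37 to 5.56). A single spot inside the 25S gene stood out in both strains. The 200 bp bin that starts 1800 bp along the unit held 60 Lsm1-TAP positions, 2.05 times an even spread, and 19 No-TAP positions, 3.81 times. Its ratio was 0.539 (0.317 to 0.956). The ratio excluded 1 in a pair of further bins. The bin at 400 bp in the 25S gene had 27 Lsm1-TAP positions against none (from 1.16). The bin at 5200 bp in the 18S gene stood at 0.362 (0.148 to 0.970). These bins were picked from all 200 bp bins of the unit without correction for their number, so no local difference between the strains was shown. The tallest Lsm1-TAP positions of the unit sat at the edge of the bin at 1800 bp. They held 117 tags at 1796 bp, 112 at 1795 bp and 87 at 1800 bp, where No-TAP had 26, 0 and 26 tags. The tallest No-TAP position, with 62 tags, lay at 1799 bp.

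**Figure D5:**
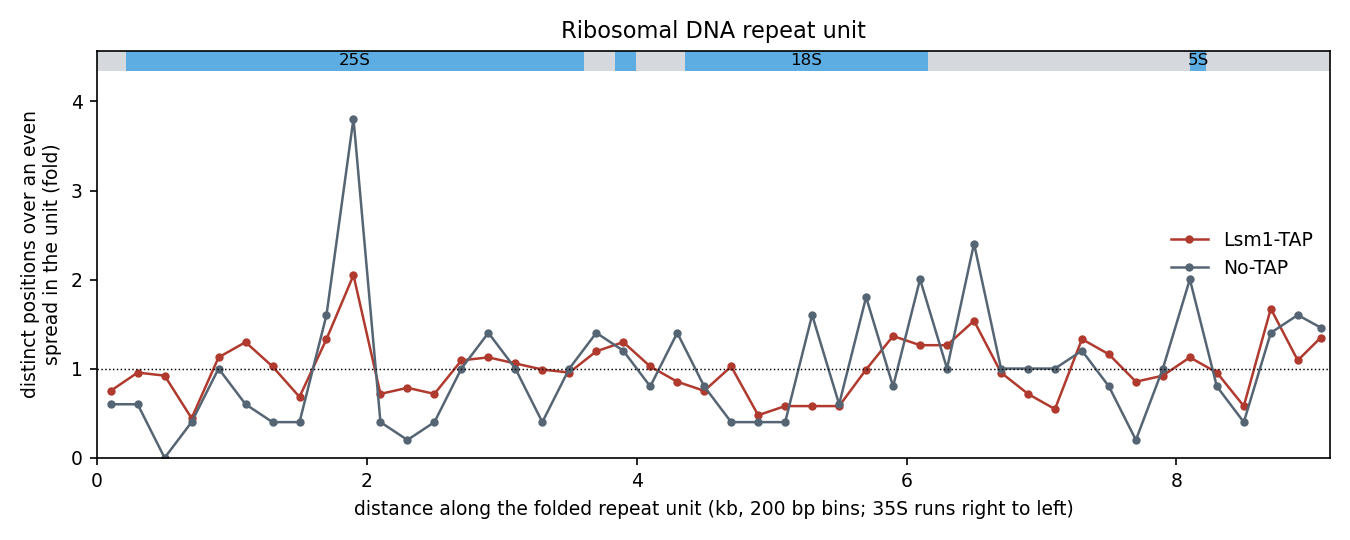
Distinct positions per 200 bp of the folded rDNA unit over an even spread within the unit (fold), against distance along the unit in kb, for Lsm1-TAP (red) and No-TAP (grey). The strip at the top marks rRNA genes in blue and spacers in grey. Both libraries share a maximum inside the 25S gene, at 2.05 in Lsm1-TAP and 3.81 in No-TAP.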

How the data were processed

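The deposited files hold counts of tags per index on the forward and reverse strand, per the file headers, with no normalization by the authors. Not given in the sources used here are the aligner, the genome build, the handling of duplicates and any pooling of replicates. RefSeq's gene table of the R64 assembly was used after testing it against the positions in steps of 10 bp over 1000 bp each way, and none of its coordinates are printed. The library totals were 211236 and 33412 tags, so 3 tags, the floor used against a count of 0, are 14.2 CPM in Lsm1-TAP and 89.8 CPM in No-TAP.

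Positions were counted once per index and strand. Windows may overlap neighbouring genes, and classes overlap. The rDNA was folded onto 1 unit. A coding gene was taken as repeated when at least 5 positions, and at least 10% of those of the larger gene, recurred at the same offset in another gene, a rule chosen after seeing the data. Shares and the folds of classes and rDNA parts have Clopper-Pearson intervals. Folds of coding region bins, gene lists and small RNA genes have exact Poisson intervals. Ratios have exact conditional binomial intervals and the ratio of promoter folds an exact conditional odds ratio interval, all at 95%. Genes were called at an adjusted p of 0.05. Python 3.11.15, numpy 2.4.6, pandas 2.3.3, scipy 1.17.1 and matplotlib 3.10.9 were used, and the procedures were tested on simulated data.

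The members, the 17 gene lists and the tests were chosen with earlier results of these data known. Named by rule were the 20 coding genes with most Lsm1-TAP positions upstream, the 5 with most at 0 No-TAP tags, the 5 with most No-TAP positions, the Lsm ring and PAT1, the 2 fullest members of each list, the 5 fullest tRNA and snoRNA or snRNA genes and the 5 fullest coding regions per kb. Further phospholipid and histone genes were named after their values were seen. Promoter sequences and motifs were not analysed here. DNA of chromosome XI was left out of all gene counts, and mitochondrial DNA was not analysed here. Alternatives were tags, positions with at least 2 tags, thinning, windows of 150 and 500 bp, totals without rDNA, each chromosome left out, start codons moved by 30 bp, tandem genes, each rDNA copy alone, median ratio scaling, a filter of 10 tags and an offset of 5 bp. Added after seeing the data were leaving out repeated genes, merging positions within 5 bp, counting rDNA copies apart, thinning of the position totals and bins of 20 kb.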

Additional observations from a re-analysis of the deposited data

How the results depend on the processing

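The upstream, coding and promoter ratios to No-TAP kept their direction and their side of 1 under every alternative that gave an interval, and thinning, which gives none, kept their direction. The upstream ratio ranged from 0.826 with at least 2 tags to 0.910 with 500 bp windows, and the promoter ratio from 0.680 with at least 2 tags to 0.849 after thinning. For the rDNA share, with a main ratio of 1.11, tags gave 1.15, at least 2 tags 1.21, thinning 1.4, the first copy alone 1.19, the second copy alone 1.2, both copies apart 1.18 and merging within 5 bp 0.808. The ratio of position totals was 3.07 after thinning. Thinning also moved the repeated genes to 0.483, the chromosome ends to 0.615 and the tRNA class to 0.943. Genes called above an even spread numbered 1621 in Lsm1-TAP and 638 in No-TAP by tags, 123 and 15 with 150 bp windows, and 185 in Lsm1-TAP with at least 2 tags. Against No-TAP, tags gave 422 genes above and 593 below, and a filter of 10 tags left 20 below. Median ratio scaling of positions, set only by genes with tags in both libraries, gave 6 above and 1 below. The cell wall list lost its call with 500 bp windows, at 0.617 (0.353 to 1.13). The causes were not tested. No paired analysis was possible because each strain has 1 library, and leaving out a replicate was not possible either. With 1 library a side the spread between cultures is unknown, and 4743 No-TAP positions limit every ratio.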

Other observations

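Chromosome XI, which matches the gene table only after a shift, held 1038 Lsm1-TAP positions and 201 No-TAP positions, a share of 0.967 of that in No-TAP (0.830 to 1.13). Its fullest 300 bp stretch of Lsm1-TAP, at file indices 99700 to 99999, held 27 positions with 377 tags, more than any upstream window named above, against 6 positions with 55 tags in No-TAP. Scaled to the totals this is a ratio of 0.842 by positions (0.341 to 2.50) and 1.08 by tags (0.815 to 1.47). Xrn1-TAP had 17 positions there and Dcp2-TAP 30. The second stretch, at indices 163100 to 163399, held 13 positions against 1.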
